A study of Arabidopsis thaliana with 6 samples.

Results

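The BRI1 kinase inhibitor gene BKI1 and the 6 MEMBRANE-ASSOCIATED KINASE REGULATOR genes MAKR1 to MAKR6 were followed in Arabidopsis thaliana roots given auxin. They were taken by locus identifier, and the 7 loci made up the family's rows among 32833 genes in the count table. The roots were wild type of the ecotype Col-0, 3 days after germination. The IAA group had spent 1 h in liquid half-strength Murashige and Skoog medium that held the auxin indole-3-acetic acid (IAA) at 1 µM, and the mock group had spent the same time in that medium without it. Each group had 3 libraries of roughly 100 roots each, and the labels do not say whether these were grown and treated apart, so p-values measure the spread between these samples only.

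Proteins of this family have no transmembrane domain and are held at the inner face of the plasma membrane, where they act on receptor-like kinases. BKI1 binds the kinase domain of the brassinosteroid receptor BRI1 and keeps it from its co-receptor BAK1. When the hormone is bound, BKI1 is phosphorylated and leaves the membrane. The MAKR proteins were named for their likeness to BKI1, and several have roles in root growth.

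All 7 genes were detected in every library and passed the low-count filter, as did 19778 genes in all. After 1 h of IAA, MAKR4, MAKR6, MAKR5 and BKI1 rose, and MAKR1, MAKR2 and MAKR3 were not called. A call is an adjusted p under 0.05 (edgeR's quasi-likelihood test with Benjamini-Hochberg adjustment over every gene tested). Thus 4 of 7 members were called higher, against 3.24% of the genes tested. The members were chosen with earlier results of these data known, so this contrast is not a test of the family. The number called lower was 0 by edgeR, by DESeq2, by limma-voom and at an unadjusted p under 0.05 in edgeR. Over all genes tested, edgeR called 0.991% lower, DESeq2 2.78% and limma-voom 0.88%, and 7.57% were lower at the unadjusted threshold. In the 4 called genes the IAA and mock libraries did not overlap, and 12.3% of the genes tested had every IAA library above every mock library. The median log2 change of the 7 members was 0.66, and that of all genes tested was -0.00847. The authors' deposited table also has these 4 genes at an adjusted p under 0.05 and higher with IAA, where 4.89% of its genes with an adjusted p are called higher.

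MAKR4 (AT2G39370), which acts in lateral root formation downstream of auxin made in the root cap, gave the highest counts of the family after IAA. It had 77.0, 82.5 and 85.8 counts per 1e+06 counts (CPM) in the IAA libraries and 8.44, 8.64 and 10.01 CPM in the mock libraries. The IAA libraries lay close together and far above the mock libraries. MAKR4 rose 9.05-fold (log2 change 3.18, SE 0.11, edgeR adjusted p = 1.69e-05). By p it was number 5 of the genes tested, and by size of increase number 62. It is a gene of 1 exon on the minus strand of chromosome 2, from 16443996 to 16445408 in TAIR10.1.

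MAKR6 (AT5G52900) had the largest fold change of the family. Its levels were 43.1, 35.6 and 44.8 CPM in the IAA libraries and 4.64, 3.49 and 3.801 CPM in the mock libraries. MAKR6 rose 10.3-fold (log2 change 3.37, SE 0.16, edgeR adjusted p = 7.08e-05) and stood at number 50 by size of increase. The 2-exon gene lies on the minus strand of chromosome 5, from 21452442 to 21453980.

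**Figure D1:**
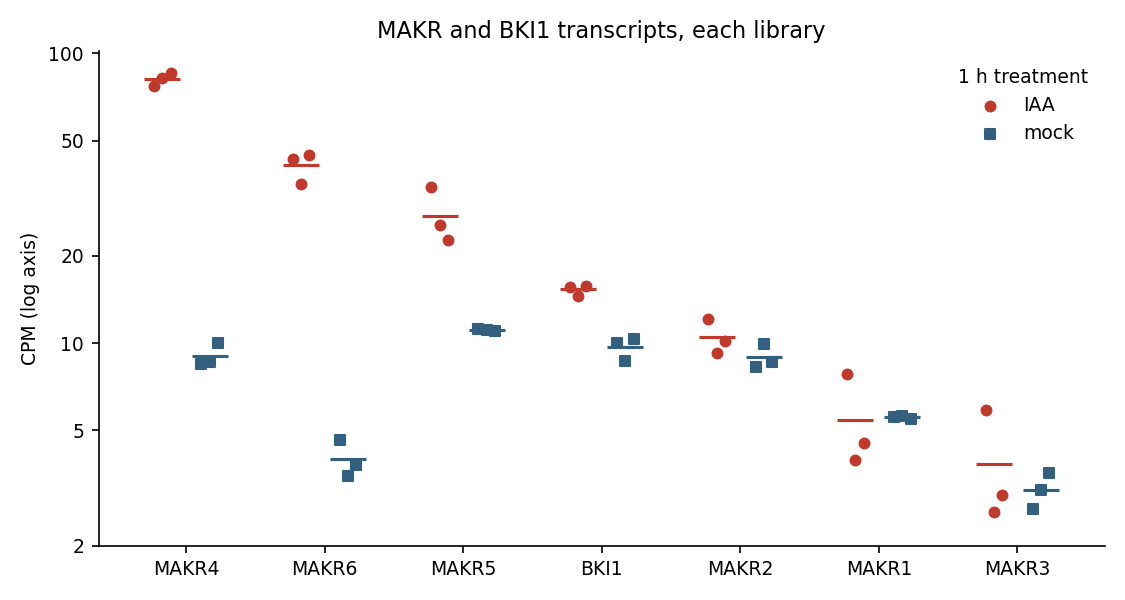
Level of each of the 7 genes in CPM on a log axis, with IAA libraries as circles left of mock libraries as squares, and each group mean as a line (n = 3). MAKR4, MAKR6, MAKR5 and BKI1 have no overlap between groups, while the groups of MAKR2, MAKR1 and MAKR3 overlap.

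Because MAKR4 and MAKR6 rose most, the stretch upstream of both genes is shown, beside that of MAKR1, which was not called and holds the same hexamer. Each runs 5′ to 3′ on the gene's own strand, from 600 to 351 bases before the annotated gene start (RefSeq, TAIR10.1). The positions are chr2:16445759-16446008 for MAKR4, chr5:21454331-21454580 for MAKR6 and chr5:9174949-9175198 for MAKR1. These windows were chosen because they hold the matches. Capitals mark TGTCTC and TGTCGG on either strand, hexamers known to be bound by auxin response factors.
MAKR4: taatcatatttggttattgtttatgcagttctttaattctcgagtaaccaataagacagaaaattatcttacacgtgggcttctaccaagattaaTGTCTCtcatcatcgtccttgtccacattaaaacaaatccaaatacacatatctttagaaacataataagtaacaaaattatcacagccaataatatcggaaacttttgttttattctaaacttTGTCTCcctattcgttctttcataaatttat
MAKR6: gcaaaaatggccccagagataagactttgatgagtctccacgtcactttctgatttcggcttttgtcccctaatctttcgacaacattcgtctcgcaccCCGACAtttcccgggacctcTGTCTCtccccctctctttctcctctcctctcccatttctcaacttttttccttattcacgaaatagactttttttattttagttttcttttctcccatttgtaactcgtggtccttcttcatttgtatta
MAKR1: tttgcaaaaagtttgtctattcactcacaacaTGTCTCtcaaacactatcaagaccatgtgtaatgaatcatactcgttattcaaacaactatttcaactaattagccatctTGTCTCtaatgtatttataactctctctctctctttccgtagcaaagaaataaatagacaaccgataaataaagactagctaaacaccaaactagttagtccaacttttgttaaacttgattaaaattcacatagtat

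In 1000 bases upstream, MAKR4 held TGTCTC at 505 and 381 bases before the start. MAKR6 held TGTCTC at 762 and 481 bases and TGTCGG on the opposite strand at 501 bases. MAKR1 held TGTCTC at 700, 568 and 488 bases and MAKR2 held it at 571 bases, while BKI1, MAKR3 and MAKR5 held neither hexamer in this window. A window of this length held at least 1 of these hexamers in 48.3% of 27431 protein-coding genes. Hence 2 of the 4 called members and 2 of the 3 others had a match. None of the matches to these hexamers overlapped another. In the nearest 300 bases, 0 of the 7 members had a match, against 17.3% of genes.

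Sequences tied to brassinosteroid responses were searched the same way. The G-box CACGTG, which reads the same on both strands, was found once upstream of BKI1, at 319 bases, once upstream of MAKR2, at 554 bases, and once upstream of MAKR4, at 529 bases, against 14.8% of genes with a match in 1000 bases. CGTGTG was found upstream of MAKR3, on the opposite strand at 258 bases, against 17.2% of genes. CGTGCG was found upstream of 0 members, against 5.09% of genes. None of these matches overlapped another match.

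MAKR5 (AT5G52870) amplifies the signal of the peptide CLE45 through the receptor kinase BAM3 in developing protophloem. It had 34.5, 25.5 and 22.6 CPM in the IAA libraries, against 11.2, 11.1 and 11.0 CPM in the mock libraries. The mock libraries were nearly equal, and among the IAA libraries replicate 1 was the highest. MAKR5 rose 2.48-fold (log2 change 1.31, SE 0.17, edgeR adjusted p = 0.00532). The gene lies on chromosome 5 from 21427827 to 21429495, on the same strand as MAKR6 and 22946 bases from it.

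BKI1 (AT5G42750) had 15.6, 14.6 and 15.8 CPM in the IAA libraries, against 10.04, 8.68 and 10.3 CPM in the mock libraries. It rose 1.58-fold (log2 change 0.66, SE 0.12, edgeR adjusted p = 0.0261), a small change with a narrow spread in both groups. The call was lost without mock 1, mock 2, IAA 2 or IAA 3, with adjusted p up to 0.116, while the log2 change stayed between 0.60 and 0.71 whichever library was left out. BKI1 has 1 exon and lies on the minus strand of chromosome 5, from 17142816 to 17144672.

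MAKR2 (AT1G64080) binds the receptor kinase TMK1 and sets the pace of root gravitropism. Its levels were 12.1, 9.28 and 10.2 CPM in the IAA libraries and 8.26, 9.96 and 8.61 CPM in the mock libraries, so the groups overlapped (log2 change 0.23, SE 0.15, edgeR adjusted p = 0.502).

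MAKR1 (AT5G26230) had 7.85, 3.96 and 4.53 CPM in the IAA libraries and 5.58, 5.62 and 5.48 CPM in the mock libraries. Replicate 1 of IAA lay above the mock libraries and the other two IAA libraries lay below them (log2 change -0.03, SE 0.26, edgeR adjusted p = 0.974). MAKR3 (AT2G37380) had 5.86, 2.61 and 3.00 CPM in the IAA libraries and 2.67, 3.12 and 3.56 CPM in the mock libraries, again with IAA replicate 1 the highest (log2 change 0.30, SE 0.33, edgeR adjusted p = 0.731). Without IAA replicate 1 the log2 change of MAKR3 was -0.15 (SE 0.24) and that of MAKR1 was -0.39, both without a call, and MAKR1 was at 0.15 without IAA replicate 2. MAKR2 lies on chromosome 1 from 23784977 to 23786800, MAKR1 on chromosome 5 from 9172911 to 9174598 and MAKR3 on chromosome 2 from 15686650 to 15688013.

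**Figure D2:**
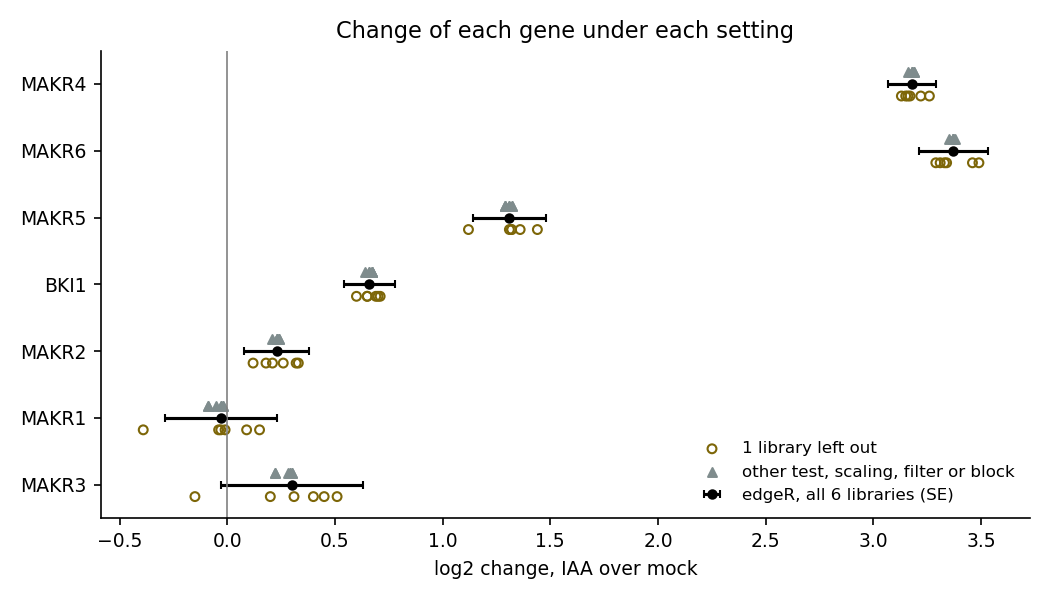
Log2 change of IAA over mock for each gene in edgeR with all 6 libraries (black, with SE), with 1 library left out (open circles) and under another test, scaling, low-count filter or replicate block (triangles). MAKR4 stays between 3.13 and 3.26 and MAKR6 between 3.29 and 3.49 with 1 library left out, while MAKR1 and MAKR3 cross 0.

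To set the members beside each other, CPM were divided by exon length in kb. In mock roots the highest levels per kb were those of MAKR5 at 7.07 ± 0.0462 and MAKR4 at 6.39 ± 0.604 CPM per kb (SD, n = 3), whose ranges over libraries overlapped. BKI1 at 5.22 ± 0.476 and MAKR2 at 5.16 ± 0.519 CPM per kb followed and overlapped each other. MAKR1 stood at 3.29 ± 0.0404 CPM per kb, and MAKR6 at 2.75 ± 0.412 and MAKR3 at 2.28 ± 0.325 CPM per kb were lowest and overlapped each other. Among 19404 protein-coding genes tested, these mock means fell between the percentiles 17.4 (MAKR3) and 40.6 (MAKR5).

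After IAA the order was MAKR4 at 57.9 ± 3.13, MAKR6 at 28.4 ± 3.40, MAKR5 at 17.6 ± 3.95, BKI1 at 8.26 ± 0.353 and MAKR2 at 6.07 ± 0.832 CPM per kb (SD, n = 3). Neighbours in this order did not overlap over the libraries. MAKR1 at 3.23 ± 1.24 and MAKR3 at 2.80 ± 1.301 CPM per kb came last and overlapped. MAKR4 stood at percentile 89.3 in IAA roots, against 37.8 in mock roots, and MAKR6 at percentile 78.2, against 20.02. MAKR5 stood at percentile 66.1 with IAA and 40.6 in mock.

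The summed level of the 7 genes was 131, 117 and 125 CPM per kb in the IAA libraries and 31.7, 31.6 and 33.1 CPM per kb in the mock libraries. MAKR4 made up 46.7% ± 4.41 of this sum in IAA roots and 19.8% ± 1.35 in mock roots (SD, n = 3). The share of MAKR6 was 22.9% ± 1.81 with IAA and 8.56% ± 1.35 in mock. MAKR5 rose in level, yet its share was 14.1% ± 2.66 with IAA and 22.0% ± 0.688 in mock. BKI1 held 6.65% ± 0.183 of the sum with IAA and 16.2% ± 1.24 in mock.

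**Figure D3:**
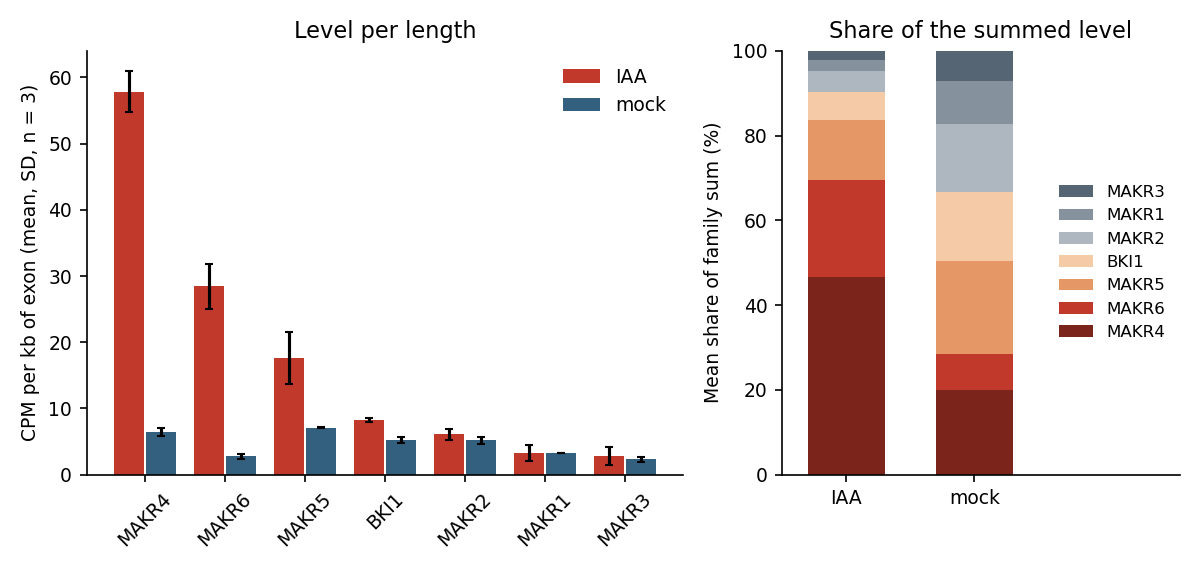
Left, mean level per kb of exon with SD (n = 3) in IAA roots and, to the right of it, in mock roots; right, mean share of each gene in the family's summed level per kb. MAKR4 holds 46.7% of the sum in IAA roots and 19.8% in mock roots.

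Ratios of counts between members within a library do not depend on library scaling, and 21 pairs were compared with 2-sided exact permutation tests over samples. With 3 against 3 libraries the smallest possible p is 0.1, so no pair could pass 0.05. In 17 of the 21 pairs the ratios did not overlap between the groups. The pairs share members, and no share over all gene pairs was taken to set this count against. A ratio between a called member and one not called in part restates the call, so the count adds no separate evidence. The ratio of MAKR4 to MAKR6 was 1.79, 2.32 and 1.92 in the IAA libraries and 1.82, 2.47 and 2.63 in the mock libraries. These ratios overlapped (exact permutation p = 0.3), and their mean log2 ratio differed by -0.19 between IAA and mock. MAKR5 was less abundant than MAKR6 in the IAA libraries, with ratios of 0.7996, 0.717 and 0.505, and more abundant in the mock libraries, with ratios of 2.40, 3.18 and 2.90 (exact permutation p = 0.1). The ratio of MAKR4 to MAKR5 was 2.23, 3.23 and 3.79 in the IAA libraries and 0.756, 0.779 and 0.908 in the mock libraries (exact permutation p = 0.1). For BKI1 to MAKR2 the ratios were 1.29, 1.57 and 1.55 in the IAA libraries and 1.22, 0.872 and 1.201 in the mock libraries (exact permutation p = 0.1). The margin between these groups was narrow, from 1.22 to 1.29.

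Over aligned bases, with gaps left out, the coding sequences of the members were 59.9% to 68.1% identical in pairwise alignment. MAKR2 and MAKR6 stood at 68.09% over 702 aligned bases, and MAKR1 and MAKR3 at 68.06% over 814. The coding sequence of MAKR2 has 1236 bases, so the 702 cover only a part of it. The longest run of exon sequence shared by any pair was 26 bases, between BKI1 and MAKR1, and the reads were 100 bases long. Among the nearest genes of the count table on either side of the members, which were looked at outside the rule for named genes, 7 of 14 were tested and 1 was called, against 4.23% of genes tested. That neighbour was AT2G39360, which lies 3451 bases downstream of MAKR4 on the same strand (log2 change 0.87, SE 0.19, edgeR adjusted p = 0.0466). The other 6 had log2 changes between -0.32 and 0.07, including AT5G52880 beside MAKR5 at 0.07 and ATIM beside MAKR6 at -0.14. No source used here says whether counting used strand, so reads of overlapping antisense transcripts cannot be told apart from those of the members.

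The genes whose profile over the 6 libraries was most like that of each called member were taken from 18883 others, by the root mean square difference of centred log2 CPM. For MAKR4 these were AT1G75360 (difference 0.0766), PUCHI (0.0962), which encodes a transcription factor of lateral root primordia, and the Aux/IAA repressor gene IAA1 (0.158). For MAKR6 they were the small auxin up RNA gene SAUR35 (AT4G12410, difference 0.135), GA2OX8 (0.149), which encodes a gibberellin-inactivating oxidase, and IAA1 (0.164). For MAKR5 they were AT4G26540 (0.0466), AT5G46870 (0.097) and AT1G36940 (0.1), and for BKI1 they were AT5G59360 (0.0416), AT1G50660 (0.0529) and AT4G39830 (0.0557). AT5G59360 and AT4G39830 were not themselves called (edgeR adjusted p = 0.0986 and 0.0812). Their means in mock roots were 0.948 and 2.28 CPM. The measure takes likeness over 2 groups only, after 0.5 CPM was added to each value, which shrinks the step of genes at low levels. Such genes can rank high with a larger fitted change, as did AT1G75360 (edgeR log2 change 4.38, at a mean of 0.349 CPM in mock roots) beside MAKR4 at 3.18, and SAUR35 (3.88) and GA2OX8 (3.92) beside MAKR6 at 3.37.

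BKI1 acts on brassinosteroid perception, and 2 receptors of this hormone rose with it. Of 20 brassinosteroid signalling genes tested, 3 were called higher and 0 lower by edgeR, against 4.23% of genes tested called in either direction. At an unadjusted p under 0.05, 7 were higher and 2 lower, against 9.88% and 7.57% of genes tested. DESeq2 called 5 higher and 1 lower, against 5.56% and 2.78%. The calls by limma-voom were 3 higher and 0 lower, against 3.04% and 0.88%. This list too was chosen with earlier results of these data known, so these contrasts are not a test of it. The list median was -0.02 on the log2 scale. CDG1 and BSU1 were too low to be tested.

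BRL3, a BRI1-like receptor gene of vascular cells, had 115, 109 and 92.4 CPM in the IAA libraries and 27.4, 20.2 and 22.8 CPM in the mock libraries. It rose by 2.17 on the log2 scale (SE 0.14, edgeR adjusted p = 0.000267). BRL1, a receptor gene of the same kind, had 33.2, 47.7 and 45.4 CPM in the IAA libraries and 13.04, 10.6 and 12.8 CPM in the mock libraries (log2 change 1.79, SE 0.17, edgeR adjusted p = 0.0012).

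The co-receptor gene BAK1 rose less, with 153, 167 and 169 CPM in the IAA libraries, against 119, 122 and 126 CPM in the mock libraries (log2 change 0.41, SE 0.09, edgeR adjusted p = 0.0413). The BAK1 call was lost without mock 1, mock 2, mock 3, IAA 2 or IAA 3. BRI1 itself, the receptor that BKI1 binds, was at 232 ± 13.1 CPM in IAA roots and 187 ± 31.0 CPM in mock roots (SD, n = 3), and the groups overlapped (log2 change 0.31, SE 0.13, edgeR adjusted p = 0.279). The kinase gene BIN2 and the transcription factor genes BZR1 and BES1, further down the pathway, gave no call, at -0.05, 0.43 and -0.20 on the log2 scale. Of the genes related to BZR1 and BES1, BEH1 was at -0.86 (SE 0.19, edgeR adjusted p = 0.0535), BEH2 at 0.46 (SE 0.13, edgeR adjusted p = 0.117) and BEH4 at 0.49 (SE 0.12, edgeR adjusted p = 0.0668). In these 3 genes the IAA and mock libraries did not overlap, and DESeq2 called all 3 while edgeR called 0. Of all genes tested, 12.3% had every IAA library above every mock library. The share with every IAA library below was not computed. DESeq2 called 5.56% of genes tested higher and 2.78% lower. BEH3, the other gene of this kind in the list, was at 0.42 (SE 0.29, edgeR adjusted p = 0.533), with overlap between the groups.

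**Figure D4:**
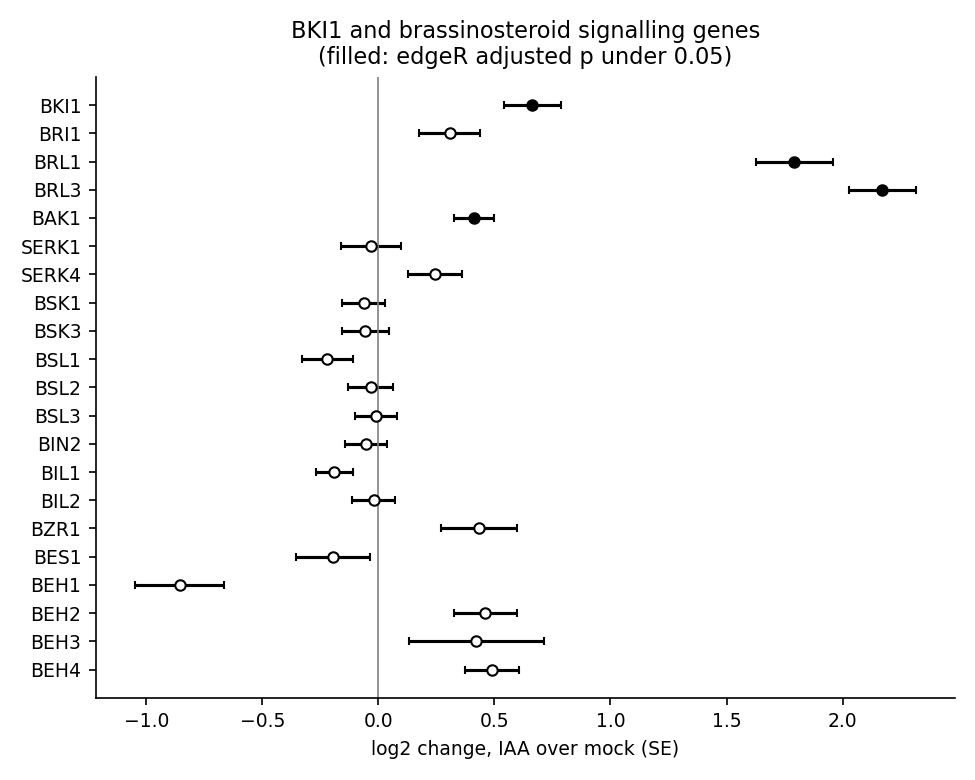
Log2 change of IAA over mock with SE for BKI1 and 20 brassinosteroid signalling genes (n = 3 libraries per group), filled where the edgeR adjusted p is under 0.05. BRL3 and BRL1 stand at 2.17 and 1.79, BKI1 at 0.66 and BAK1 at 0.41.

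A list of MAKR partners and genes of related pathways showed no call by edgeR among 10 tested. This stood against 4.23% of genes tested, a share at which a list of this size need hold none. Of its 15 entries, 4 (CIK2, TMK2, TMK3 and TMK4) were left out because their symbols did not match the reference. The list held the receptor kinases BAM1, BAM2, BAM3 and TMK1, the receptor-like protein CLV2, the pseudokinase CRN, the small GTPases ROP2, ROP4 and ROP6, and the auxin carrier PIN2. At an unadjusted p under 0.05, PIN2 was higher and ROP2 lower, against 9.88% and 7.57% of genes tested. DESeq2 called PIN2 alone, against 5.56% of genes called higher, and limma-voom called 0, against 3.04% higher and 0.88% lower. PIN2 was at 301 ± 13.1 CPM in IAA roots and 236 ± 5.44 CPM in mock roots (SD, n = 3), with no overlap (log2 change 0.35, SE 0.09, edgeR adjusted p = 0.0754). ROP2 had a log2 change of -0.36 (SE 0.11), also with no overlap, its IAA libraries all being below the mock libraries. Of all genes tested, 12.3% had every IAA library above every mock library, and the share below was not computed. BAM3, through which MAKR5 acts, was at 93.3 ± 16.98 CPM in IAA roots and 91.4 ± 10.04 CPM in mock roots. TMK1, bound by MAKR2, had a log2 change of -0.21 (edgeR adjusted p = 0.296), with every IAA library below every mock library. CLE45 had 0 counts in the 6 libraries.

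Among enzymes of the charged membrane lipids to which these proteins are drawn, 7 genes were tested. Another 5 of the 12 list entries, PI4KA1, PI4KB1, PI4KB2, SAC6 and SAC7, were left out because their symbols did not match the reference. Of the 7 genes tested, 1 was called higher and 0 lower by edgeR, by DESeq2 and by limma-voom. Over all genes tested, the shares called higher were 3.24%, 5.56% and 3.04% by these tools in that order, so the count is that of 1 gene and says nothing of the list. That gene was PIP5K1, which encodes a kinase making phosphatidylinositol 4,5-bisphosphate. It had 262, 229 and 186 CPM in the IAA libraries and 113, 98.6 and 75.8 CPM in the mock libraries (log2 change 1.24, SE 0.18, edgeR adjusted p = 0.0101). PIP5K2, of the same type, was at 0.13 on the log2 scale and was not called.

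The 14-3-3 genes, whose products bind BKI1 once it has left the membrane, gave 0 calls among 11 tested, and 0 also at an unadjusted p under 0.05, in DESeq2 and in limma-voom. Over all genes tested, edgeR called 4.23% in either direction, and 9.88% were higher and 7.57% lower at the unadjusted threshold. DESeq2 called 5.56% higher and 2.78% lower, and limma-voom 3.04% and 0.88%. At these shares a list of 11 need hold no call. Their log2 changes ran between -0.13 and 0.28, and the pair with the smallest p was GRF11 at 0.28 and GRF4 at 0.14. GRF12 was too low to be tested. The genes that convert indole-3-butyric acid to IAA, the source of the root cap auxin upstream of MAKR4, likewise gave 0 calls among 4 tested by each of the 3 tools and at an unadjusted p under 0.05, and at the same shares over all genes a list of 4 need hold no call. IBR3 stood at 0.11 and IBR10 at 0.06 on the log2 scale. Of the 5 entries of this list, TOB1 was left out because its symbol did not match the reference.

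Library totals ran from 20808439 to 20984444 counts, and members had between 54 and 1744 counts in a library. The auxin-conjugating enzyme gene GH3.3, a check of the treatment, was at 985 ± 66.8 CPM with IAA and 5.25 ± 1.05 CPM in mock. All 8 root marker genes had counts in all 6 libraries, with sums of 382 to 430 CPM in the IAA libraries and 365 to 370 CPM in the mock libraries. All 9 green tissue markers also had counts in all 6, with sums of 164, 927 and 221 CPM in IAA 1, IAA 2 and IAA 3, and of 1705, 176 and 2784 CPM in mock 1, mock 2 and mock 3. The log2 changes of these 9 genes lay between -2.26 and -1.05, with overlap between the groups. The part of green tissue in the members' changes was not tested. In whole roots, more cells with a transcript and more transcript per cell cannot be told apart.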

How the data were processed

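RNA of 6 root samples had ribosomal RNA removed and was sequenced in paired 100-base reads, per the labels' protocols. The deposited table gives raw counts per gene, with technical runs already combined. The submitters' processing notes list build TAIR10, the aligner STAR 2.5.2b, DESeq2 1.26.0, FastQC and SAMtools. The counting tool is not given in the sources used here. The authors also deposited a comparison with a mean normalized signal, a log2 fold change (IAA over mock) with its error, a Wald score, a p-value and an adjusted p-value, per the file headers.

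Counts were tested with the robust quasi-likelihood test of edgeR 4.0.16 (glmQLFit, glmQLFTest) in R 4.3.3, with TMM, filterByExpr and group as the only term, over 19778 genes. SE is the absolute log2 change divided by the square root of F. CPM are counts per 1e+06 counts in tested genes, scaled by TMM. Levels per kb used RefSeq exon lengths of TAIR10.1, matched by locus; 73 of 83 list entries whose symbol matched were kept. Profiles used log2(CPM + 0.5). Alternatives were other scalings and filters, DESeq2 1.42.0, limma 3.58.1 (voom), a replicate block, stricter calls and each library left out. A run on simulated counts checked that most large changes were called and that called changes had the right sign. It set no limit on false calls or on missed small changes, such as one of the size seen for BKI1. Libraries of 1 group differed by more than counting noise (chi-square per degree of freedom 13.9 to 43.5).

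Members and lists were chosen with earlier results of these data known. Named genes were the 7 members, each called gene of a list or its 2 smallest p, and the 3 genes with the profile nearest to each called member; other genes were named after their values were seen.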

Additional observations from a re-analysis of the deposited data

How the results depend on the processing

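MAKR4, MAKR5 and MAKR6 kept direction and call under all 15 alternatives, with adjusted p of at most 0.000625, 0.0405 and 0.00133. BKI1 kept its direction in all 15 and its call in 8. It was lost with the replicate block (log2 change 0.67, adjusted p = 0.0576), at an adjusted p under 0.01 or a minimum of 2-fold (0.66 in both), and without single libraries (range 0.60 to 0.71). MAKR1 ranged from -0.39 to 0.15 and MAKR3 from -0.15 to 0.51 with 1 library left out, turning direction without IAA 2 or IAA 3 and without IAA 1, with no call. Members called higher were 4, and 3 to 4 with 1 library left out. DESeq2 gave 6 calls in the brassinosteroid list, against 3, and 1 in the list of MAKR partners and related genes, against 0. The cause was not tested. At an adjusted p under 0.01 the lipid enzyme list had 0 calls, a stricter threshold by construction.

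The deviations of same-numbered libraries from their group means correlated at 0.123, -0.442 and 0.218. Differently numbered libraries gave -0.371 to 0.315. These mixed signs over 3 libraries a group cannot settle whether same-numbered libraries shared growth or handling, which the labels do not say. The block left 3 members called and ended the BAK1 call. In all, 641 genes were higher and 196 lower; these counts ran from 260 (without mock 1) to 1099 (DESeq2) and from 39 (adjusted p under 0.01) to 549 (DESeq2). MAKR3, with 54 to 124 counts a library, was the least precise member.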

Other observations

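In 3 of the 7 members, MAKR1, MAKR3 and MAKR5, IAA replicate 1 was at least 1.3 times as high as the higher of the other two IAA libraries, a ratio chosen after the values were seen. The ratio was 1.73 for MAKR1, 1.95 for MAKR3 and 1.35 for MAKR5, and it was 1.19 for MAKR2, 0.991 for BKI1, 0.964 for MAKR6 and 0.898 for MAKR4. Of all genes tested, 12.1% reached this ratio.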
